A study of Homo sapiens with 16 samples.

Results

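The genes described here are 35 genes of the unfolded protein response and of the ATF4 stress response, and the comparison asked whether inhibition of DDR1 or of RUNX was accompanied by endoplasmic reticulum (ER) stress or amino acid stress. The genes were chosen by symbol, with earlier results of these data known, and all 35 were found among the 26475 entries of the table of counts. Expression was measured by RNA-seq in MCF10A cells, a spontaneously immortalized and non-tumorigenic line of human breast epithelium. The 16 libraries form 4 groups of 4 replicates: control cells with vehicle and without collagen, cells with collagen alone, cells with collagen and DDR1-IN-1 (DDR1i, a kinase inhibitor of the collagen receptor DDR1), and cells with collagen and AI-10-104 (RUNXi, which blocks the binding of CBFβ to RUNX proteins). By the study's methods for this assay, DDR1i was used at 2 μM and RUNXi at 5 μM over 48 h, of which the final 24 h were with collagen at 0.05 mg/mL. All groups are of 1 cell line, so that other breast epithelium is not represented. The labels do not say whether replicates were separate cultures, and p-values then measure the spread between these libraries, which may be technical.

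When unfolded proteins collect in the ER, 3 sensors in its membrane respond. IRE1 (gene *ERN1*) splices the mRNA of *XBP1*, ATF6 is cut to release a transcription factor, and PERK (*EIF2AK3*) phosphorylates the initiation factor eIF2α. XBP1 and ATF6 raise the genes of ER chaperones and of ER-associated degradation. Phosphorylated eIF2α slows translation as a whole but lets the mRNA of *ATF4* be translated, and the same step follows amino acid shortage through another kinase, GCN2. ATF4 raises genes for amino acid synthesis and uptake, and with CHOP (*DDIT3*) it raises feedback genes such as *TRIB3* and *PPP1R15A*. The counts give the amount of each mRNA and do not show the splicing of *XBP1*, the cleavage of ATF6 or the phosphorylation of eIF2α.

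Some promoters of these genes carry DNA elements through which the response is best known, and 4 are shown as examples of both arms. RefSeq promoter windows (GRCh38.p14, from 250 bases before to 50 bases after the start) were found for 33 of the 35 genes. Capitals mark the matched element in a stretch of 100 bases upstream of the start, 5′ to 3′ on the strand of the gene. *HSPA5* (chr9:125241351-125241450, minus strand) and *XBP1* (chr22:28800570-28800669, minus strand) hold an ER stress element. *HERPUD1* (chr16:56931951-56932050, plus strand) holds an ER stress element II and, nearer the 5′ end, a C/EBP-ATF response element on the opposite strand. *ASNS* (chr7:97872423-97872522, minus strand) holds a C/EBP-ATF response element.
HSPA5: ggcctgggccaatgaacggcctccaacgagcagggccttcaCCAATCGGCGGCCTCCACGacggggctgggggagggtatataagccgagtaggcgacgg
XBP1: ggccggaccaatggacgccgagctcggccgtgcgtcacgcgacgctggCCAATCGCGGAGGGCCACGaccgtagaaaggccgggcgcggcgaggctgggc
HERPUD1: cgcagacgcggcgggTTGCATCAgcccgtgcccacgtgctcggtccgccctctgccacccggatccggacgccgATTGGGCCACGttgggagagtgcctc
ASNS: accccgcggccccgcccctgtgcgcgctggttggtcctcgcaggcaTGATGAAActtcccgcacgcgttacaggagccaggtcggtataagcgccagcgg

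Both strands of each window were searched for 4 motifs. The ER stress element (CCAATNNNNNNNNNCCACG) was in the windows of 7 of the 33 genes, namely *HSPA5*, *HSP90B1*, *CALR*, *CANX*, *PDIA6*, *CRELD2* and *XBP1*, against 0.0916% of all 27305 genes with a window. The ER stress element II (ATTGGNCCACG) was found in *HYOU1*, *SDF2L1* and *HERPUD1* and in 0.0696% of all genes. The unfolded protein response element (TGACGTGG) was found in *HYOU1* and in 0.927% of all genes, and its match overlapped that of an ER stress element II, the 1 overlap between motifs. The C/EBP-ATF response element (TGATGNAA) was found in *HERPUD1*, *CHAC1*, *ASNS* and *SLC3A2* and in 4.46% of all genes. In all, 13 of the 33 genes held at least 1 element and 20 held none, *ATF4*, *DDIT3* and *TRIB3* among them. These matches describe letters in a window and not occupied sites. Of the 6 genes that passed the test against collagen alone in the comparisons that follow, 4 hold at least 1 of these elements, and *MANF* and *PSAT1* hold none in this window.

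Total counts ranged from 12184619 to 44332378 per library. Levels are given as CPM, the counts of a gene relative to the size of its library, which was scaled by the TMM method of edgeR. The 8 epithelial markers of MCF10A were all detected, with a summed level of 12699 to 16869 CPM with DDR1i and of 17658 to 24400 CPM in the other groups. Of 8 markers of fibroblasts, leukocytes and endothelium, 2 were at 0 in every library, and their sum was 0.944 to 7.10 CPM. The authors removed collagen replicate 3 as an outlier, and it was left out of the tests here and is given beside the results. This library lay below the other 3 collagen libraries for 17 of the 35 genes, above them for 6 and within their range for 12. The inhibitors were compared with collagen in a fit of 11 libraries, in which all 35 genes passed the filter on low counts among 13548 genes tested. A gene was called where its edgeR quasi-likelihood p-value, adjusted by Benjamini-Hochberg over all genes tested, was under 0.05.

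By this test no gene of the 35 was called higher with either inhibitor. An unadjusted p under 0.05 was found for 12 of the 35 genes with DDR1i (18% of all genes tested) and for 14 with RUNXi (21.1%). Of these, *PDIA6* and *HYOU1* were above collagen with DDR1i, and *CANX*, *HYOU1* and *SEL1L* with RUNXi, and DESeq2 called *CANX* higher with RUNXi (0.37, adjusted p = 0.0348). With DDR1i, 4 genes were lower than with collagen alone: *ASNS* and *PSAT1* of amino acid synthesis, and *XBP1* and *HERPUD1* of the unfolded protein response. With RUNXi, 3 genes were lower: *SLC3A2* of amino acid uptake, and *MANF* and *XBP1*. Over all genes tested, 0.775% were called lower and 1.69% higher with DDR1i, and 1.46% lower and 2.59% higher with RUNXi. This test ignores replicate number. With the number added as a block, edgeR also called *ATF4* and *TRIB3* lower with both inhibitors. The block further added *DDIT4*, *CHAC1*, *PHGDH* and *MTHFD2*, lower with DDR1i, and *CANX*, higher with RUNXi. Both comparisons use the same collagen libraries, so a high or low collagen library enters both alike. Estimates below 0 were given by 22 of the 35 genes with DDR1i (median log2 fold change -0.11) and by 26 with RUNXi (median -0.20), against 49.7% and 49.5% of all genes tested (medians 0.00 and 0.01).

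**Figure D1:**
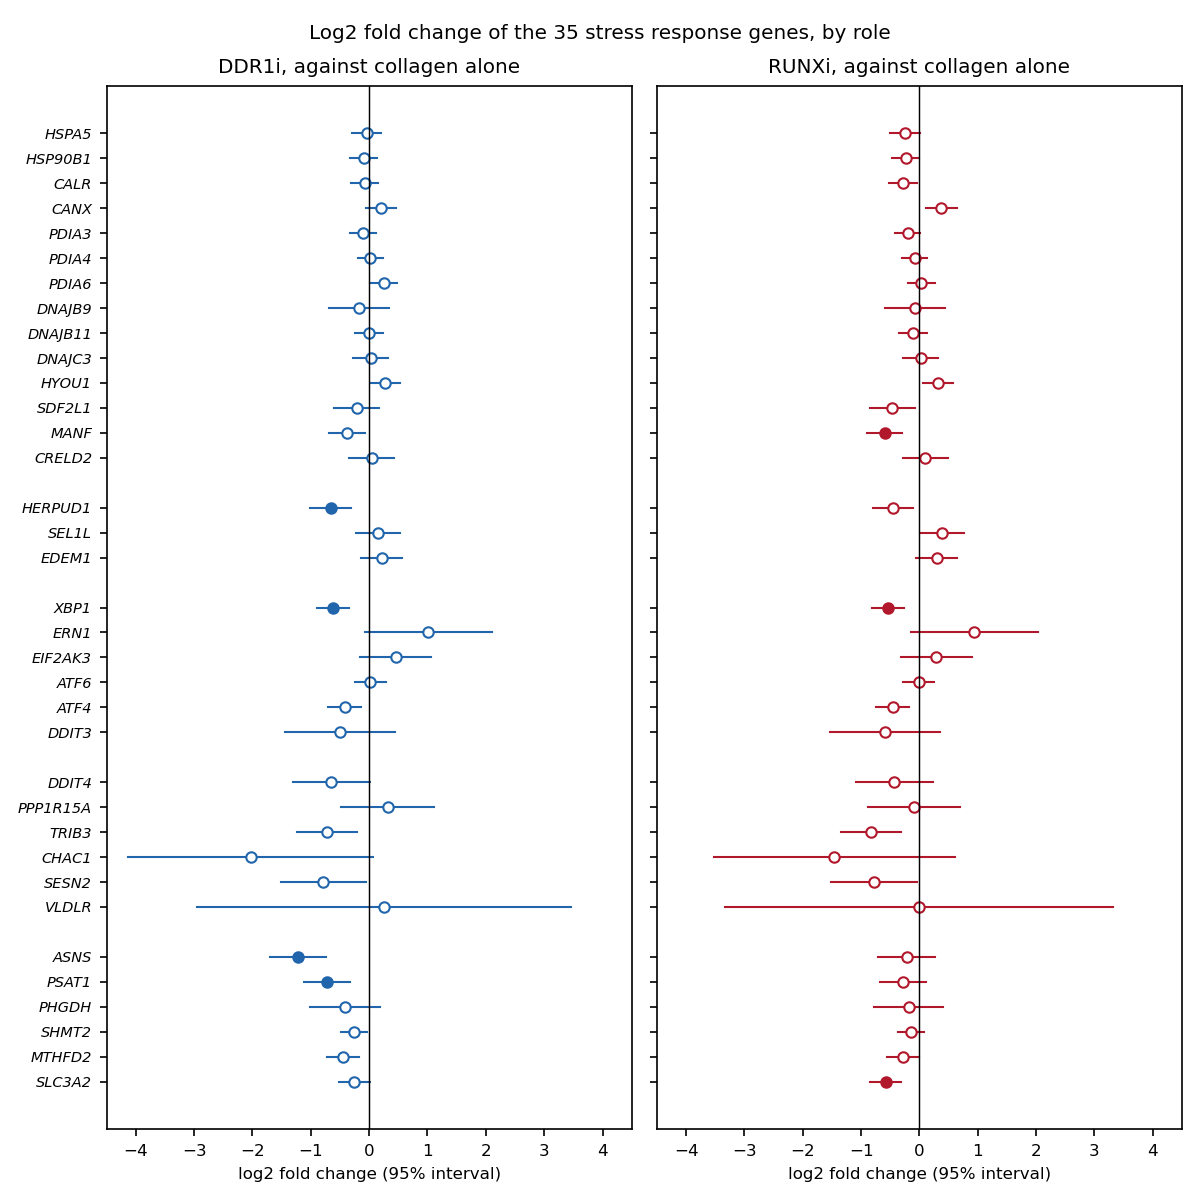
Log2 fold change (x axis) of each of the 35 genes (rows, in blocks by role) with DDR1i (left) and RUNXi (right) against collagen alone, where points are edgeR estimates, lines are 95% intervals and filled points have an adjusted p under 0.05. The filled points, 4 with DDR1i and 3 with RUNXi, are all left of 0, and the chaperones in the first block lie between -0.60 and 0.38, while *CHAC1* in the fourth block reaches -2.03 with a wide interval.

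The libraries of a group can also be compared without a model, by asking whether they overlap. With DDR1i, all 4 libraries were below the 3 collagen libraries for 5 genes (6.71% of all genes tested) and above them for 2 (8.43%). With RUNXi, all 4 were below for 8 genes (8.8% of all genes) and above for 2 (9.46%). The 2 genes above were *PDIA6* and *ERN1* with DDR1i, and *CANX* and *HYOU1* with RUNXi, and none of these had an adjusted p under 0.05.

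The ER chaperones and folding enzymes are the group that an unfolded protein response raises most directly, and by edgeR 1 of its 14 genes was called, in the downward direction, while DESeq2 also called *CANX* higher with RUNXi. The median log2 fold change of the 14 genes was -0.02 with DDR1i and -0.10 with RUNXi. *HSPA5* encodes BiP, the main Hsp70 chaperone of the ER and the usual readout of ER stress. It measured 836, 747, 731 and 1005 CPM in the control libraries, 850, 874, 781 and 1065 CPM with collagen alone (replicates 1 to 4, here and below), 879, 916, 771 and 1051 CPM with DDR1i, and 758, 826, 704 and 858 CPM with RUNXi. The 4 groups overlapped, and replicate 4 was the highest library in each. The log2 fold change of *HSPA5* was -0.04 ± 0.12 (SE) with DDR1i (adjusted p = 0.925) and -0.25 ± 0.12 with RUNXi (adjusted p = 0.247). The 95% intervals ended at 0.21 and 0.01, so that a larger rise lay outside them. The estimate with DDR1i was 0.01 when collagen replicate 3 was included.

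*MANF* (GRCh37 chr3:51422722-51426828), which encodes a secreted ER protein that binds BiP, was the chaperone gene called by edgeR, with RUNXi. It measured 101, 104, 73.3 and 153 CPM with collagen alone and 66.3, 88.3, 82.4 and 78.4 CPM with RUNXi. In the control it measured 67.3, 68.8, 82.0 and 86.4 CPM, and with DDR1i 93.4, 83.4, 88.2 and 101 CPM. The RUNXi libraries lay below collagen replicates 1, 2 and 4 and overlapped those of the control, and collagen replicate 3 was at the level of both. The log2 fold change was -0.60 ± 0.15 with RUNXi (adjusted p = 0.0236) and -0.38 ± 0.15 with DDR1i (adjusted p = 0.157). Collagen replicate 4 was the highest of the 16 libraries, and without it the difference with RUNXi was -0.37 (adjusted p = 0.206). The call was also lost without RUNXi replicate 1, 3 or 4 (adjusted p = 0.0539 to 0.0649) and with collagen replicate 3 included (-0.47, adjusted p = 0.278).

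The other 13 chaperone genes were not called by edgeR. *HSP90B1*, *CALR* and *CANX* encode GRP94, calreticulin and calnexin, and *PDIA3*, *PDIA4* and *PDIA6* encode protein disulfide isomerases. Their estimates ran from -0.11 (*PDIA3*) to 0.25 (*PDIA6*) with DDR1i and from -0.28 (*CALR*) to 0.38 (*CANX*) with RUNXi. *CANX* had the smallest adjusted p of these, 0.0834 with RUNXi, and its collagen replicate 4 at 708 CPM was the lowest of all 16 libraries, which otherwise measured 959 to 1355 CPM. The co-chaperones *DNAJB9*, *DNAJB11* and *DNAJC3* gave estimates between -0.18 and 0.02 with either inhibitor. *HYOU1*, the nucleotide exchange factor of BiP, gave 0.28 and 0.32, *SDF2L1* gave -0.21 and -0.47, and *CRELD2* gave 0.05 and 0.10. The smallest adjusted p among these 6 genes was 0.131, for *HYOU1* with RUNXi.

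**Figure D2:**
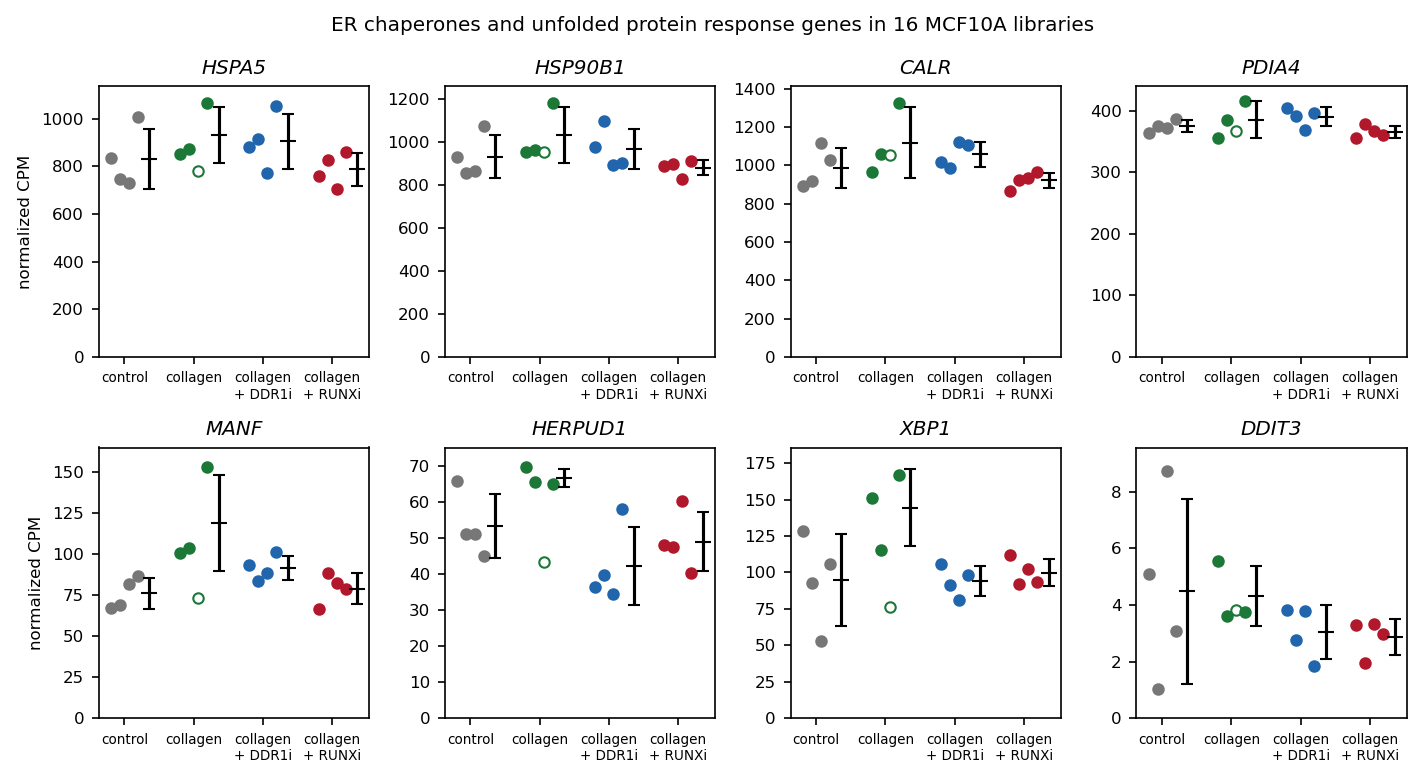
Normalized CPM (y axes, from 0) of 8 genes of the unfolded protein response in each of the 16 libraries, by group, with the mean and SD as black bars, where collagen replicate 3 is the open circle and is left out of mean and SD. *HSPA5* overlaps between all groups, while *XBP1* is highest in 2 of the collagen libraries, 151 and 167 CPM, and falls to 76.2 CPM in collagen replicate 3.

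Among the genes of ER-associated degradation, *HERPUD1* was lower with DDR1i, and *SEL1L* and *EDEM1* were not called with either inhibitor. *HERPUD1* (GRCh37 chr16:56966054-56978776) encodes a membrane protein of the degradation complex. It measured 69.7, 65.5, 43.4 and 65.0 CPM with collagen alone, 36.5, 39.8, 34.6 and 58.2 CPM with DDR1i, and 48.04, 47.6, 60.2 and 40.3 CPM with RUNXi. In the control it measured 66.0, 51.1, 51.2 and 45.1 CPM. Both inhibitor groups lay below collagen replicates 1, 2 and 4, while collagen replicate 3 lay among the inhibitor libraries. Against collagen this was a log2 fold change of -0.66 ± 0.17 with DDR1i (adjusted p = 0.0351) and -0.45 ± 0.17 with RUNXi (adjusted p = 0.120). With collagen replicate 3 included the difference with DDR1i was -0.54 (adjusted p = 0.454). The call was also lost without any 1 of collagen replicates 1, 2 or 4, DDR1i replicates 1, 2 or 3, or RUNXi replicate 2 (adjusted p = 0.0512 to 0.145). *SEL1L* and *EDEM1*, which serve the same complex and the extraction of misfolded glycoproteins, gave estimates of 0.15 and 0.21 with DDR1i and 0.39 and 0.30 with RUNXi, the opposite sign to *HERPUD1*.

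Of the sensors and transcription factors, *XBP1* (GRCh37 chr22:29190543-29196585) was called lower with both inhibitors. It measured 151, 115, 76.2 and 167 CPM with collagen alone, 106, 91.3, 81.3 and 98.4 CPM with DDR1i and 112, 91.9, 102 and 93.3 CPM with RUNXi. The control libraries were 128, 92.6, 52.7 and 106 CPM. All inhibitor libraries lay below collagen replicates 1, 2 and 4 and inside the range of the control. The log2 fold change was -0.62 ± 0.14 with DDR1i (adjusted p = 0.0166) and -0.54 ± 0.14 with RUNXi (adjusted p = 0.0290). When collagen replicate 3 was included, the differences were -0.44 and -0.37 (adjusted p = 0.5002 and 0.399). Without collagen replicate 4 they were -0.50 and -0.41 (adjusted p = 0.0855 and 0.157). The call with DDR1i was also lost without DDR1i replicate 3 (adjusted p = 0.0842), and that with RUNXi without RUNXi replicate 2, 3 or 4 (adjusted p = 0.0624 to 0.0753).

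*ATF4* was abundant, at 295 to 596 CPM. It was not called in any of the 6 comparisons by the main edgeR test, which filters low counts and ignores replicate number. With collagen alone it measured 596, 533, 315 and 404 CPM, and in the control 518, 478, 331 and 295 CPM. With DDR1i it measured 443, 379, 379 and 332 CPM, and with RUNXi 426, 382, 389 and 295 CPM. Both inhibitor groups were narrower than the collagen and control groups and lacked levels as high as the highest of these. Log2 fold changes were -0.42 ± 0.14 with DDR1i (adjusted p = 0.0948) and -0.46 ± 0.14 with RUNXi (adjusted p = 0.0528). The test of DESeq2 gave adjusted p of 0.0474 and 0.0238 for the same differences, and with collagen replicate 3 included edgeR gave -0.28 and -0.33 (adjusted p = 0.646 and 0.416). With that library left out and replicate number added as a block, edgeR called *ATF4* lower with both inhibitors. The differences were -0.41 with DDR1i and -0.46 with RUNXi (adjusted p = 0.0197 and 0.0108).

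The other sensors were scarce or steady. *DDIT3*, whose product CHOP links prolonged stress to cell death, had 13 to 230 counts a library and measured 5.55, 3.62, 3.83 and 3.77 CPM with collagen alone. It measured 5.08, 1.04, 8.72 and 3.06 CPM in the control, 3.81, 2.76, 3.78 and 1.83 CPM with DDR1i, and 3.28, 1.94, 3.31 and 2.98 CPM with RUNXi. No inhibitor library reached the highest collagen or control level, and the 95% intervals of the log2 fold change ran from -1.44 to 0.44 with DDR1i and from -1.53 to 0.35 with RUNXi. *ATF6* was within 66.7 to 92.8 CPM in all libraries, with estimates of 0.02 and -0.01. *ERN1* (0.399 to 9.03 CPM) and *EIF2AK3* (2.37 to 12.7 CPM) gave positive estimates with both inhibitors (1.02 and 0.94, 0.45 and 0.29) with adjusted p of 0.312 or above.

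The ATF4 and CHOP feedback targets had no gene called by the same test, although their medians were the lowest of the 5 roles, -0.68 with DDR1i and -0.61 with RUNXi. *TRIB3*, a pseudokinase that restrains ATF4 and CHOP, had the smallest p-value of the group. It measured 277, 256, 103 and 142 CPM with collagen alone, and 308, 201, 121 and 98.1 CPM in the control. With DDR1i it measured 196, 129, 119 and 103 CPM, and with RUNXi 146, 127, 134 and 101 CPM. Replicates 1 and 2 of collagen and of the control were the 4 highest libraries, and the groups overlapped. Estimated log2 fold changes were -0.72 ± 0.24 with DDR1i (adjusted p = 0.128) and -0.83 ± 0.24 with RUNXi (adjusted p = 0.0683). By DESeq2 the second had an adjusted p of 0.0412. With the replicate block, edgeR called *TRIB3* lower with DDR1i and RUNXi (adjusted p = 0.00356 and 0.00117). It also called *DDIT4* and *CHAC1* lower with DDR1i (adjusted p = 0.00401 and 0.0144). Without a filter on low counts, *TRIB3*, *DDIT4*, *CHAC1* and *SESN2* were called lower with both inhibitors.

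*CHAC1*, a glutathione-degrading enzyme and sensitive ATF4 target, spread the most. It measured 25.1, 9.51, 0.187 and 1.21 CPM in the control and 17.3, 19.2, 1.495 and 2.003 CPM with collagen alone, the first group resting on 3 to 1137 counts. With DDR1i it measured 8.82, 1.88, 1.20 and 0.504 CPM, and with RUNXi 7.63, 3.74, 4.46 and 2.90 CPM. *SESN2*, an inhibitor of mTORC1, gave -0.78 ± 0.34 with both inhibitors (adjusted p = 0.245 and 0.210), and *DDIT4*, which also restrains mTORC1, gave -0.65 ± 0.29 and -0.43 ± 0.30. *PPP1R15A*, the GADD34 subunit that returns eIF2α to its unphosphorylated state, gave 0.32 ± 0.35 and -0.09 ± 0.35. *VLDLR*, a lipoprotein receptor, had at most 60 counts in a library and could not be judged.

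**Figure D3:**
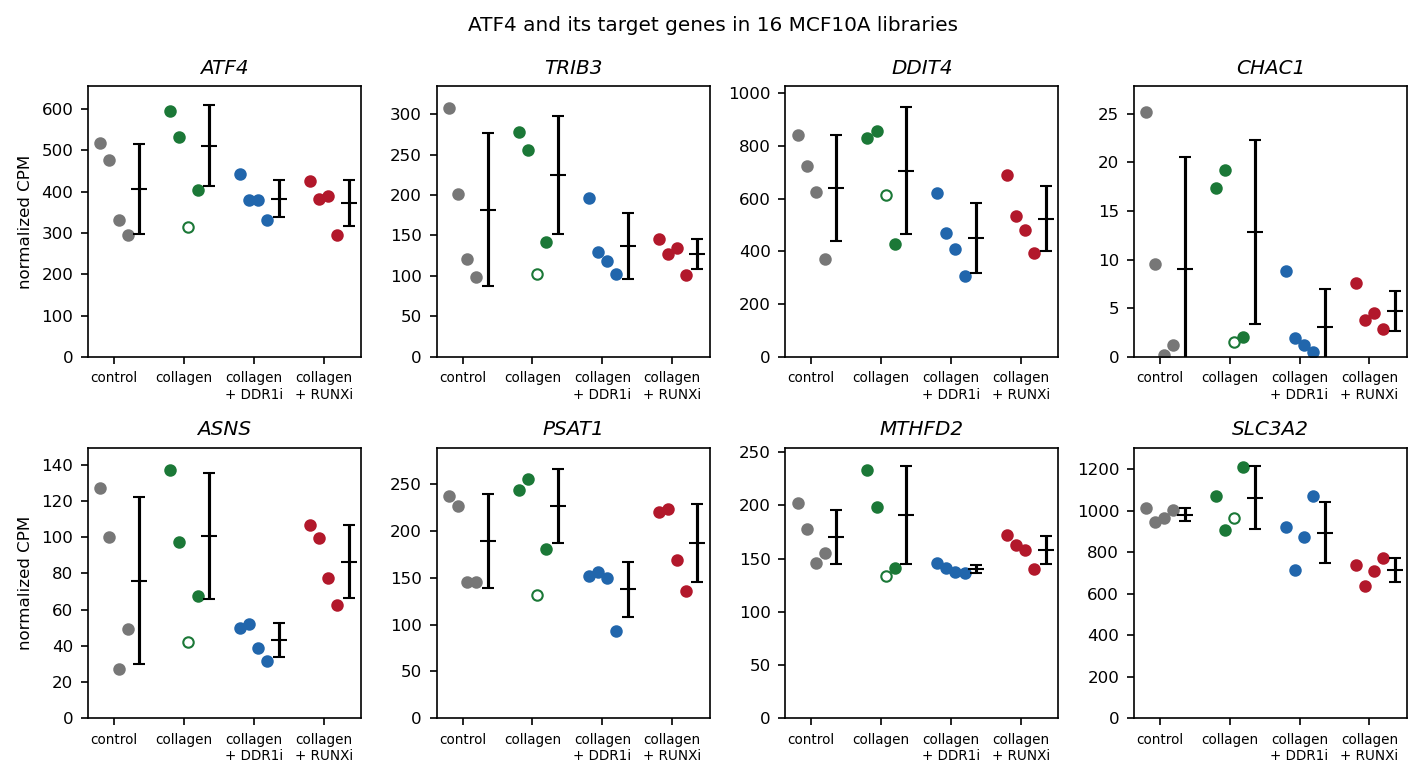
Normalized CPM (y axes, from 0) of *ATF4* and 7 of its targets in each of the 16 libraries, by group, with the mean and SD as black bars, where collagen replicate 3 is the open circle and is left out of mean and SD. The control and collagen libraries of *ATF4* and *TRIB3* split into high and low ones, *ASNS* stays at or below 52.0 CPM in all DDR1i libraries, and *SLC3A2* is lowest with RUNXi.

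The 6 genes of amino acid and one-carbon metabolism all had estimates below 0 with both inhibitors, with medians of -0.43 with DDR1i and -0.25 with RUNXi. *ASNS* (GRCh37 chr7:97480989-97501854), asparagine synthetase, gave the largest called difference. It measured 137, 97.1, 42.2 and 67.7 CPM with collagen alone and 49.8, 52.0, 38.9 and 31.8 CPM with DDR1i. With RUNXi it measured 107, 99.3, 77.7 and 62.4 CPM, and in the control 127, 100, 27.3 and 49.2 CPM. The DDR1i libraries lay below all RUNXi libraries and below collagen replicates 1, 2 and 4, while control replicate 3 was lower than any of them. The log2 fold change of DDR1i against collagen was -1.22 ± 0.23, a fold of 0.430 (adjusted p = 0.0116), and with RUNXi it was -0.22 ± 0.23 (adjusted p = 0.645). With collagen replicate 3 included the first was -0.996 (adjusted p = 0.454), and without DDR1i replicate 3 it was -1.17 (adjusted p = 0.0595).

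The difference of the inhibitors in *ASNS* was tested directly. Over all genes tested, 0.347% were called higher and 0.221% lower with DDR1i than with RUNXi, and of the 35 genes *ASNS* was called, lower with DDR1i by a log2 fold change of -0.998 ± 0.216 (adjusted p = 0.0477). The collagen libraries are in neither group compared, and they enter through the filter on low counts, the scaling, the shared spread and the adjustment of p. The call was lost without any 1 of collagen replicate 2, the 4 DDR1i replicates or RUNXi replicates 1, 2 and 3 (adjusted p = 0.0632 to 0.236), and by the size factors of DESeq2 in edgeR (adjusted p = 0.0538). It was also lost with the trend of transcript length removed (adjusted p = 0.124) and with collagen replicate 3 included (adjusted p = 0.370). The highest adjusted p over such settings was 0.925. *PSAT1* (-0.44 ± 0.17) and *SLC3A2* (0.33 ± 0.12) gave the next smallest p-values with *PDIA6* (0.22 ± 0.10), at adjusted p of 0.479 or above, and with *ASNS* they were the 4 genes with an unadjusted p under 0.05 (6.19% of all genes tested).

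The serine pathway enzymes *PHGDH* and *PSAT1* act in sequence, and *SHMT2* and *MTHFD2* pass the carbon of serine into mitochondrial one-carbon metabolism. *PSAT1* (GRCh37 chr9:80912041-80945009) measured 244, 255, 132 and 181 CPM with collagen alone, 152, 156, 150 and 93.6 CPM with DDR1i and 220, 223, 169 and 136 CPM with RUNXi. In the control it measured 237, 227, 146 and 145 CPM. The DDR1i libraries lay below collagen replicates 1, 2 and 4, collagen replicate 3 lay among them, and the RUNXi libraries overlapped both. The log2 fold change was -0.72 ± 0.19 with DDR1i (adjusted p = 0.0469) and -0.28 ± 0.19 with RUNXi (adjusted p = 0.417). Including collagen replicate 3 gave -0.56 for the first (adjusted p = 0.495). The call was also lost without any 1 of collagen replicates 1, 2 or 4, DDR1i replicates 2, 3 or 4, or RUNXi replicate 3 (adjusted p = 0.0573 to 0.118). *MTHFD2* gave -0.45 ± 0.13 with DDR1i (adjusted p = 0.0730, and 0.0298 by DESeq2), *SHMT2* gave -0.25 ± 0.11 and *PHGDH* -0.41 ± 0.28, and all 3 were nearer 0 with RUNXi (-0.28, -0.15 and -0.19).

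*SLC3A2* (GRCh37 chr11:62623476-62656352) encodes the heavy chain CD98, which carries amino acid transporters such as LAT1 and xCT to the cell surface. It measured 739, 636, 708 and 771 CPM with RUNXi and 1071, 907, 967 and 1209 CPM with collagen alone. In the control it measured 1014, 943, 964 and 1002 CPM, and with DDR1i 919, 715, 871 and 1070 CPM. Every RUNXi library lay below every control and collagen library, collagen replicate 3 included, and the DDR1i libraries overlapped all groups. Relative to collagen alone, the log2 fold change was -0.58 ± 0.13 with RUNXi (adjusted p = 0.0150) and -0.25 ± 0.13 with DDR1i (adjusted p = 0.307). With collagen replicate 3 included the first was -0.56 (adjusted p = 0.0433), and of the 7 calls against collagen alone this was the only one kept. Without collagen replicate 4 the difference was -0.47 (adjusted p = 0.0635).

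The control group offered a reference that does not rest on the collagen libraries, although such a difference joins the effect of collagen with that of the inhibitor. In a fit of 12 libraries with 13213 genes tested, *SLC3A2* was lower with RUNXi by -0.46 ± 0.10 (adjusted p = 0.0442), against 0.159% of all genes lower and 0.242% higher. This call was lost without any 1 of the 4 control or 4 RUNXi replicates or of DDR1i replicates 1 and 3 (adjusted p = 0.0528 to 0.217). With DDR1i no gene of the 35 was called in this fit or by DESeq2, where 0.0605% of all genes were lower and 0.151% higher. At an unadjusted p under 0.05 there were 5 of the 35 genes with DDR1i (5.13% of all genes) and 2 with RUNXi (6.81%). *SESN2* had the smallest unadjusted p with DDR1i, at -0.95 ± 0.27 (adjusted p = 0.319), and gave -0.95 ± 0.27 with RUNXi as well (adjusted p = 0.224). *XBP1* gave -0.01 ± 0.18 with DDR1i and 0.07 ± 0.18 with RUNXi, *MANF* gave 0.05 ± 0.12 with RUNXi, and *ATF4* gave -0.07 ± 0.16 and -0.12 ± 0.16. *ASNS* (-0.81 ± 0.41), *PSAT1* (-0.45 ± 0.21) and *HERPUD1* (-0.33 ± 0.17) kept negative estimates with DDR1i without being called.

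**Figure D4:**
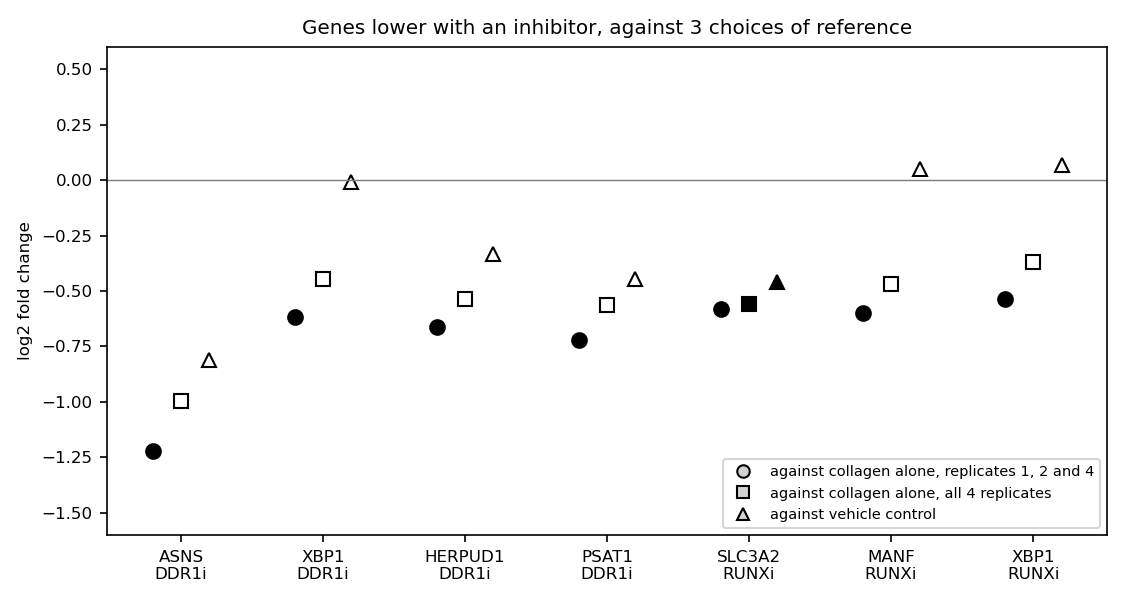
Log2 fold change (y axis) of the 7 differences called against collagen alone, with 3 references: collagen replicates 1, 2 and 4 (circles), all 4 collagen replicates (squares) and the vehicle control (triangles), filled where the adjusted p is under 0.05. *SLC3A2* with RUNXi is filled with all references (-0.58, -0.56 and -0.46), while *XBP1* and *MANF* go to between -0.01 and 0.07 against the control.

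The effect of collagen itself was tested on 7 libraries, 3 with collagen alone and 4 of the control. None of the 35 genes was called, nor was any of the 13092 genes tested, and 4 of the 35 had an unadjusted p under 0.05, against 13.4% of all genes. They were *MANF* (0.65 ± 0.17, adjusted p = 0.135) and *XBP1* (0.61 ± 0.23, adjusted p = 0.256), with estimates above 0, and *HYOU1* (-0.39 ± 0.13, adjusted p = 0.208) and *CANX* (-0.38 ± 0.14, adjusted p = 0.251), with estimates below 0. DESeq2 called 2 of the 35 genes, *MANF* and *HYOU1* (adjusted p = 0.0141 and 0.0473), among 415 genes in all. *MANF* and *XBP1* were also called lower with an inhibitor, in comparisons that share the same collagen libraries.

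The 35 genes differed in how far replicates of a group lay apart. The SD of log2 CPM within groups had a median of 0.18 over the 14 chaperone genes, against 0.31 over 13518 genes, and was lowest for *PDIA4* (0.06), which stayed within 356 to 417 CPM in all libraries. It had a median of 0.59 over the 6 feedback targets and was highest for *CHAC1* (1.96). *ASNS* (0.67), *TRIB3* (0.56) and *PHGDH* (0.53) were above the median over all genes, and *SHMT2* (0.13) and *SLC3A2* (0.16) were below it. Per kilobase of transcript, the most abundant of the 35 genes were *CALR* (535 CPM per kb), *SLC3A2* (481), *HSP90B1* (341), *DDIT4* (328) and *ATF4* (286), and the least abundant were *VLDLR* (0.0704) and *ERN1* (0.456).

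Over the 16 libraries, most ATF4 targets were correlated with *ATF4* itself. Each of the 12 feedback and amino acid genes was correlated with *ATF4* on the scale of log2 CPM with 0.1 added, with p-values from 100000 permutations and adjusted over the 12 relations. Of the 12 genes, 9 passed, with Pearson's r of 0.67 to 0.95. The permutations treated the 16 libraries as interchangeable, although they share groups and replicate numbers, so these p-values may be too small. No p-value was computed with the means of group and number removed. The same correlation was not computed over all genes, so whether this share is particular to ATF4 targets was not tested. *TRIB3* followed *ATF4* most closely (r = 0.95 and Spearman's rho = 0.96, both with p = 1e-05 by permutation, the smallest these can give, and adjusted p = 0.00012 and 6e-05). *MTHFD2* (r = 0.84), *CHAC1* (0.83), *PHGDH* (0.81) and *PSAT1* (0.81) came next, followed by *DDIT4* (0.77), *ASNS* (0.75), *SESN2* (0.72) and *SHMT2* (0.67). The highest adjusted permutation p among these 9 was 0.00707 for r and 0.00403 for rho. *SLC3A2* (r = 0.16, rho = 0.14), *PPP1R15A* (r = 0.16, rho = 0.13) and *VLDLR* (r = 0.36, rho = 0.36) did not pass, with adjusted permutation p of 0.549, 0.549 and 0.213 for r and of 0.627, 0.627 and 0.201 for rho.

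The relation did not rest on the groups or on the 2 libraries farthest from the median of *ATF4*, collagen replicates 1 and 2. Without these, r of the 9 genes was 0.62 to 0.93, and for deviations from the group means it was 0.72 to 0.96. With the means of each replicate number removed as well, r was 0.89 for *TRIB3* and 0.75 for *ASNS* and *PHGDH*, but 0.17 for *DDIT4*. On that scale *SLC3A2* (0.62) and *PPP1R15A* (0.59), which had not passed over the 16 libraries, were above *SESN2* (0.56) and *SHMT2* (0.55). *ATF4* was not related to the depth of the libraries (r = -0.05 with log2 total counts, p = 0.849 by permutation). The libraries highest in *ATF4* were replicates 1 and 2 of the control and of collagen alike, at 478 to 596 CPM. The 2 inhibitor groups held none above 443 CPM of *ATF4*, and replicate 1 was the highest library in every group.

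**Figure D5:**
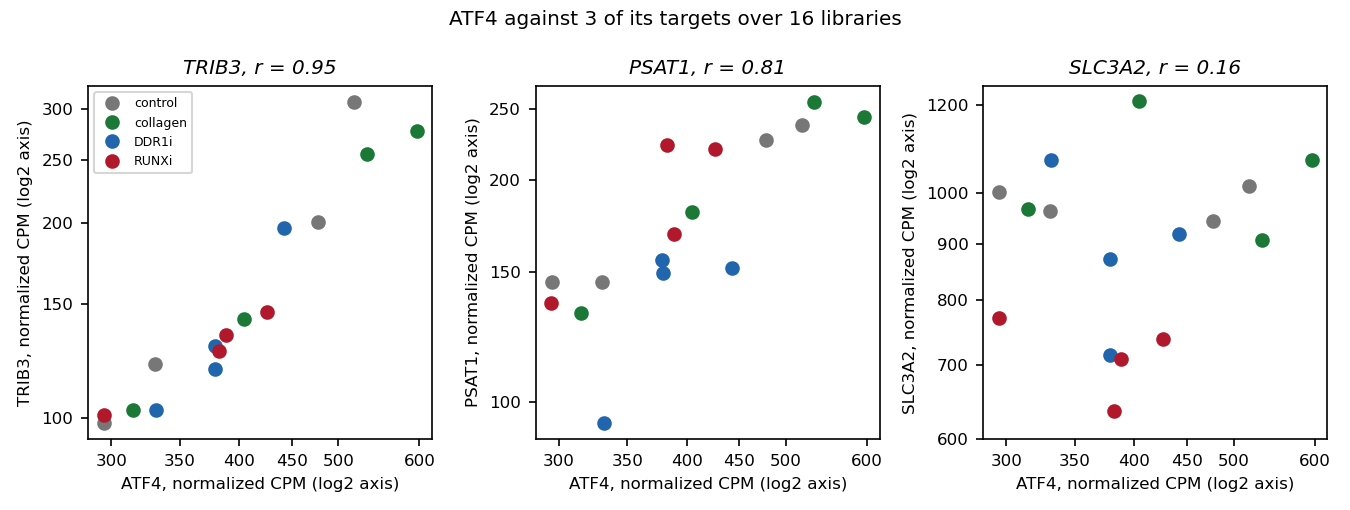
*TRIB3*, *PSAT1* and *SLC3A2* (y axes) against *ATF4* (x axes), as normalized CPM on log2 axes, where each point is 1 of the 16 libraries and colors mark the 4 groups. *TRIB3* (r = 0.95) and *PSAT1* (r = 0.81) follow *ATF4* across all groups, whereas *SLC3A2* (r = 0.16) has its 4 RUNXi libraries, at 636 to 771 CPM, below the control and collagen libraries at any level of *ATF4*.

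Further genes of the same pathways were read against the shares of all genes called against collagen. These were 0.775% lower and 1.69% higher with DDR1i, and 1.46% lower and 2.59% higher with RUNXi. None of 13 aminoacyl-tRNA synthetases, which ATF4 raises as a group, was called in any of the 6 comparisons, and 4 had an unadjusted p under 0.05 with each inhibitor against collagen (18% and 21.1% of all genes tested). Estimates were below 0 for 12 of the 13 with DDR1i (median -0.14) and 10 with RUNXi (median -0.21). Of 28 other ER folding genes, *UGGT1*, which senses the folding of glycoproteins, was higher with RUNXi (0.58 ± 0.14, adjusted p = 0.0240), and none of the others was called against collagen. None of 12 tested further genes of ER-associated degradation and none of 17 tested further ATF4 and CHOP targets was called against collagen (1 and 4 with an unadjusted p under 0.05 with DDR1i, 2 and 3 with RUNXi, shares to be read against the same 18% and 21.1%). *CREB3L2*, a transcription factor of the ER membrane, was the called gene of 16 tested regulators, and it was higher with DDR1i (0.62 ± 0.13, adjusted p = 0.0136) and with RUNXi (0.56 ± 0.13, adjusted p = 0.0209). It measured 63.6, 50.7, 89.8 and 53.8 CPM with collagen alone, 74.3 to 91.6 CPM with DDR1i and 81.3 to 84.6 CPM with RUNXi, so that collagen replicate 3 was again at the level of the inhibitors. Its call with DDR1i was lost without collagen replicate 2 or DDR1i replicate 3 or 4 (adjusted p = 0.0517 to 0.0577). With RUNXi it was lost without collagen replicate 2 or 4 (adjusted p = 0.0750 and 0.0684). The call of *UGGT1* was lost without collagen replicate 2 or 4 or RUNXi replicate 2 or 3 (adjusted p = 0.0502 to 0.0862).

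Of 17 tested genes of amino acid transport and synthesis, 1 was called with each inhibitor against collagen, in the downward direction. Over all genes tested, 0.775% were called lower with DDR1i and 1.46% with RUNXi. *SLC7A11* encodes xCT, the cystine transporter that pairs with the CD98 heavy chain. It measured 84.0, 48.8, 46.9 and 41.3 CPM with collagen alone, 35.3, 40.1, 23.2 and 35.8 CPM with DDR1i and 86.2, 80.8, 82.6 and 64.6 CPM with RUNXi. The DDR1i libraries lay below all RUNXi libraries, as for *ASNS*, by -1.22 ± 0.20 (adjusted p = 0.00201), and below collagen by -0.79 ± 0.21 (adjusted p = 0.0491). *GOT1*, an aspartate aminotransferase, was lower with RUNXi (-0.42 ± 0.12, adjusted p = 0.0447). Of 14 cytosolic heat shock genes, which respond to misfolding outside the ER, *HSPE1* was lower with DDR1i (-0.95 ± 0.23, adjusted p = 0.0457) and RUNXi (-0.88 ± 0.23, adjusted p = 0.0472), *DNAJB1* was lower with RUNXi (-0.65 ± 0.15, adjusted p = 0.0203), and none was called higher. With collagen replicate 3 included, none of the calls of these 6 further genes against collagen was kept (adjusted p = 0.0688 to 0.536), while *SLC7A11* stayed lower with DDR1i than with RUNXi (-1.21, adjusted p = 0.00207). Without collagen replicate 4, *HSPE1* gave -0.62 and -0.55 and *DNAJB1* -0.39, and without collagen replicate 1, *SLC7A11* gave -0.44 with DDR1i (adjusted p = 0.155 to 0.207). The *SLC7A11* call against collagen was also lost without any DDR1i replicate or RUNXi replicate 1, 2 or 3 (adjusted p = 0.0505 to 0.147). *GOT1* was lost without collagen replicate 1, 2 or 4, DDR1i replicate 4, or RUNXi replicate 1, 3 or 4 (adjusted p = 0.0523 to 0.124). *HSPE1* and *DNAJB1* were each lost without other single libraries as well.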

How the data were processed

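RNA-seq of 16 MCF10A libraries was grouped by the labels. Dose and duration were taken from the study's methods. The authors deposited raw counts per gene after alignment with STAR to hg19. The counting tool, annotation and use of strand are not given in the sources used here, so that overlapping or antisense genes and close copies are uncertain. The test was edgeR 4.0.16 (R 4.3.3), with TMM, filterByExpr, a robust quasi-likelihood fit and Benjamini-Hochberg over all genes tested. The SE of a log2 fold change was derived from the F value. Collagen replicate 3 was left out, as in the study. DESeq2 1.42.0, other filters and scalings, a replicate block, a length correction and leaving out each library were alternatives. The test was checked on simulated counts. SD of log2 CPM used a prior count of 2.

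The members and the gene lists were chosen with earlier results of these data known. Values in every library are given for called genes and for *HSPA5*, *ATF4*, *DDIT3*, *ASNS* and *TRIB3*, and up to 3 called genes are named per further list and comparison. *CHAC1*, as the most variable gene, was chosen after its values were seen. No replicate pair agreed within sampling noise. Transcript lengths came from GENCODE lifted to GRCh37. Figures were drawn with matplotlib 3.10.9. RNA-seq of organoids was not used here.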

Additional observations from a re-analysis of the deposited data

Results flagged for a closer look

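In 7 of the 140 groups of 4 libraries (35 genes in 4 groups), 1 library stood apart from the other 3 by a gap that took up most of the range of the group, and chance alone gives 7. The gap as a share of the range was 0.947 for *HSP90B1* in collagen replicate 4 (1182 CPM against 950 to 963 in the others), 0.900 for *PSAT1* in DDR1i replicate 4 (93.6 against 150 to 156 CPM) and 0.894 for *DDIT3* in collagen replicate 1 (5.55 against 3.62 to 3.83 CPM). It was 0.890 for *CANX* in control replicate 4 (1355 against 1161 to 1182 CPM), 0.857 for *CRELD2* in control replicate 3 (53.7 against 23.2 to 27.6 CPM) and 0.857 for *EDEM1* in RUNXi replicate 1 (89.4 against 64.5 to 68.1 CPM). For *CHAC1* in DDR1i replicate 1 it was 0.834 (8.82 against 0.504 to 1.88 CPM). Of DDR1i against RUNXi, *ASNS* gave a log2 fold change of -0.998 and was called in the edgeR test of that difference. The call was lost in 8 of 11 fits that left out 1 library and in 4 of 10 other settings.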

How the results depend on the processing

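The number of the 35 genes called depended on the settings, and the causes were not tested. Against collagen alone, the 4 genes with DDR1i became 6 by DESeq2, 10 without a filter on low counts, 0 with collagen replicate 3 included, 0 with all groups in the fit, 2 with the trend of transcript length removed and 12 at an unadjusted p (18% of all genes tested). The 3 genes with RUNXi became 6 by DESeq2, 8 without a filter, 1 with collagen replicate 3, 0 with the length trend removed and 14 at an unadjusted p (21.1% of all genes). Without a filter, *ATF4*, *TRIB3*, *DDIT4*, *CHAC1* and *SESN2* were called lower with both inhibitors. With the length trend removed, *XBP1* and *MTHFD2* were the genes called with DDR1i. Between the inhibitors, the 1 gene became 0 by DESeq2 size factors, with collagen replicate 3, with all groups in the fit or with the length trend removed, and 4 at an unadjusted p (6.19% of all genes). For collagen against the control, the 0 genes became 2 by DESeq2, 2 without a filter, 1 with all groups in the fit and 4 at an unadjusted p. Against the control, the 0 genes with DDR1i became 5 at an unadjusted p, and the 1 with RUNXi became 0 with all groups in the fit or without robust fitting and 2 at an unadjusted p. Leaving out 1 library gave 0 to 6 genes with DDR1i and 1 to 5 with RUNXi against collagen, 0 to 1 between the inhibitors, 0 to 0 for collagen, and 0 to 1 with either inhibitor against the control. The count with DDR1i was 0 without DDR1i replicate 3 and 6 without DDR1i replicate 1.

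The estimate of *HSPA5* with DDR1i against collagen, not called in any setting, changed sign to 0.0236 with the replicate block, 0.0114 with collagen replicate 3 and 0.0131 with both, and ranged from -0.121 to 0.0729 when 1 library was left out. That of *ASNS* with RUNXi became 0.0620 with collagen replicate 3 and the block, and ranged from -0.432 to 0.0468 when 1 library was left out. Replicate numbers are shared between groups, and the labels do not say what they mark. Of 24 pairs with the same number, 7 had a correlation of deviations over 0.1 (range -0.09 to 0.28, and 0.16 to 0.28 among replicates 4). Of the 16 libraries, 12 correlated best with a library of their own number. The main fits did not take the numbers as pairs, so any shift shared by a number stays in their spread. From replicate 1 to 4, *DDIT4* measured 840, 722, 626 and 370 CPM in the control and 831, 857, 612 and 428 CPM with collagen alone. It measured 621, 471, 408 and 305 CPM with DDR1i and 689, 535, 479 and 394 CPM with RUNXi. Whether the numbers mark a batch was not tested. The replicate block gave 10 genes with DDR1i and 6 with RUNXi against collagen, 2 between the inhibitors, 2 and 2 against the control. With DDR1i it added *ATF4* (adjusted p = 0.0197), *DDIT4*, *TRIB3*, *CHAC1*, *PHGDH* and *MTHFD2* (0.00356 to 0.0433), all lower. With RUNXi it added *ATF4* (0.0108) and *TRIB3* (0.00117), lower, and *CANX* (0.40, adjusted p = 0.0494), higher. Against the control it called *DDIT4* and *PSAT1* lower with DDR1i and *SESN2* and *SLC3A2* with RUNXi. With collagen replicate 3 and the block, an alternative chosen after seeing the data, there were 2 genes with DDR1i and 1 with RUNXi against collagen. The estimates of *DDIT3*, *ERN1*, *CHAC1* and *VLDLR* were limited by few counts in some libraries.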
